A study of Mus musculus with 16 samples.

Results

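The 7 genes described here are Gata4, Gata6, Sox7, Sox17, Foxa1, Foxa3 and Hnf4a, transcription factors that mark or specify endoderm. They were taken by gene name from the 27807 genes of the expression table, and no measured value entered that rule. The names were chosen with earlier results of these data known, so counts of called members are not blind to the data. Each was followed over 16 RNA-seq libraries in 8 groups, with 2 libraries per group. The groups were mouse cells with an intact Taf4a gene (WT) or homozygous for a Taf4a null allele (KO), each at 4 stages. Taf4a encodes a subunit of the general transcription factor TFIID. The stages were embryonic stem cells (ES), kept on mouse embryonic fibroblast feeders with the cytokine LIF, and embryoid bodies at day 4 (EB4), before retinoic acid was added, at day 5 (EB5), the day after its addition, and at day 8 (EB8), later in the treatment, when the labels call the cells neural precursors. All cells came from a C57Bl6J background, and all EB5 and EB8 groups, WT and KO, had received retinoic acid. The study derived its lines from blastocysts of heterozygous crosses and describes the replicates as coming from a pair of independent lines per genotype. The labels do not tie a replicate number to a line, and p-values measure the spread between these libraries.

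Endoderm factors work as a cascade. Gata4 and Gata6 are zinc finger proteins of primitive endoderm and its extraembryonic derivatives, and Gata6 acts at the head of that programme in the blastocyst. Sox7 and Sox17 are related HMG-box proteins. Sox7 marks parietal endoderm and Sox17 is required for definitive gut endoderm, and both are also expressed in endothelium. Foxa1 and Foxa3 are forkhead proteins that can bind compacted chromatin and open enhancers in foregut and liver, and Foxa1 is also expressed in the floor plate of the neural tube with its paralogue Foxa2. Hnf4a is a nuclear receptor of visceral endoderm and liver. Retinoic acid is a classic inducer of Gata, Sox and extraembryonic endoderm genes in stem cell cultures.

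Promoter windows, from 250 bases before to 50 bases after the transcription start, were found for 3 of the 7 members among 32851 RefSeq windows of 27025 genes (GRCm38.p6). The forkhead members are shown because Foxa1 had the largest change with stage and the firmest genotype difference of the members, while Foxa3 ran against the others. In the Foxa1 window (chr12:57546062-57546361, minus strand) the capitals mark a match to the forkhead motif TGTTTAC on the opposite strand, starting 141 bases before the start. In the Foxa3 window (chr7:19023490-19023789, minus strand) the capitals mark TATAAA, starting 36 bases before the start. Both are read 5′ to 3′ along the gene.
Foxa1: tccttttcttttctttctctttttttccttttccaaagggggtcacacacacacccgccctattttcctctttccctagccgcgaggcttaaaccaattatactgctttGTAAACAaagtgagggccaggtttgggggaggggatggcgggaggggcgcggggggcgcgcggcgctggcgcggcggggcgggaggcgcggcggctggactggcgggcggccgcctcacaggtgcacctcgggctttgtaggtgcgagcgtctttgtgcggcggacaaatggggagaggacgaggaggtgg
Foxa3: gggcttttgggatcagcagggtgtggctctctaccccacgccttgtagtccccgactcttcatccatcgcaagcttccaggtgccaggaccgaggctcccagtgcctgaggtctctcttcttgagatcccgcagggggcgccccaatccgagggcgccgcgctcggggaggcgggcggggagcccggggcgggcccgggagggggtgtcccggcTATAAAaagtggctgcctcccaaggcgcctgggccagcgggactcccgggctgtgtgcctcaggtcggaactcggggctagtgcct
TGTTTAC, on either strand, is in 3.6% of all windows and TATAAA in 13.6%. The GC content was 62.3% for Foxa1 and 69.0% for Foxa3, above the median of 52.7% over all windows, and the windows held 26 and 22 CG dinucleotides against a median of 7. The upstream Hnf4a window (chr2:163506607-163506906, plus strand) holds the letters GATAA, found in 25.4% of all windows, and ACAAT, found in 31.0%. A match describes the letters of a window and does not show binding.

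Levels are normalised read counts, that is, reads per gene divided by a size factor per library. Depth ran from 22442118 to 40711826 reads per library, with all ES libraries deeper than all embryoid body libraries. A gene was tested when its mean over the 16 libraries was at least 10, which held for 16124 genes and for 6 of the 7 members, all but Hnf4a. Differences are given as log2 of (normalised count + 1), fitted with limma over all 8 groups, and a call is an adjusted p (Benjamini-Hochberg over the 16124 genes) under 0.05. The Taf4a count did not fall in KO libraries (1972.8 to 2400.0, against 1590.9 to 1959.6 in WT). The allele lacks a pair of exons, which a count over the whole gene does not resolve, so this count checks no label.

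**Figure D1:**
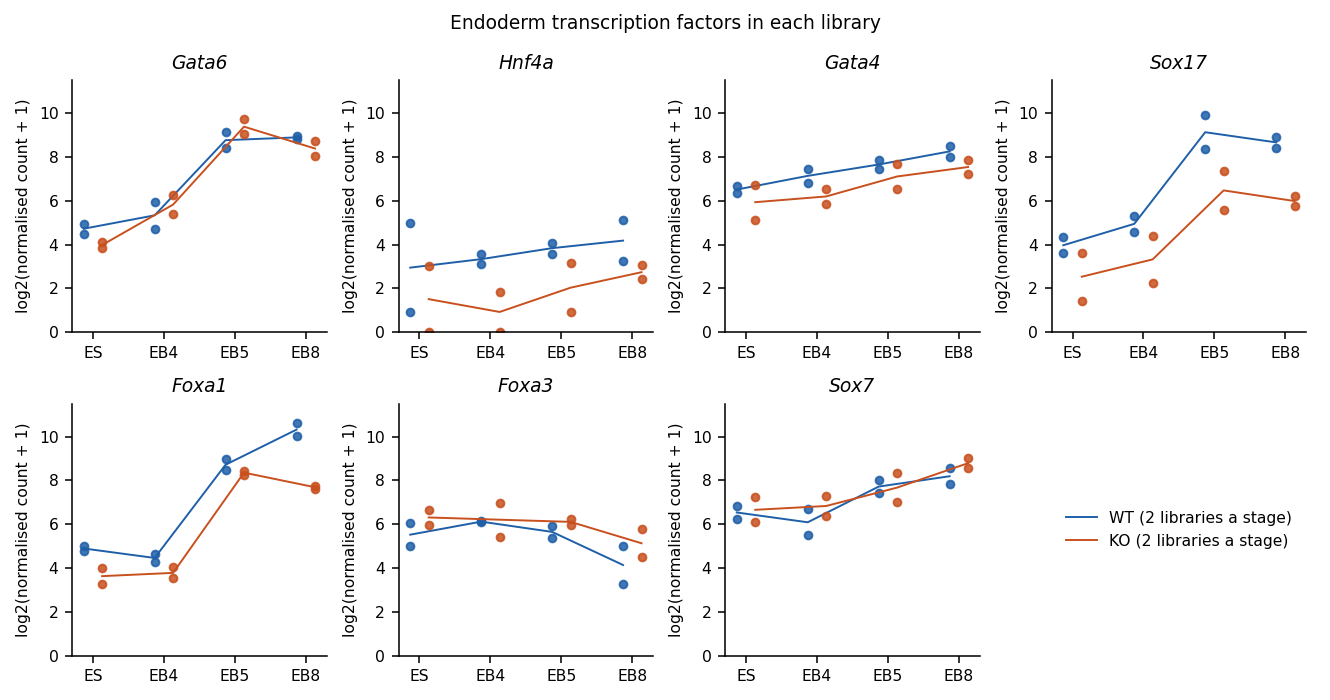
Level of each of the 7 members in each library, as log2(normalised count + 1) on the vertical axis against stage on the horizontal axis, WT in blue and KO in orange, with points for libraries and lines joining the group means. Gata6, Sox17 and Foxa1 sit low at ES and EB4 and high at EB5 and EB8, and the KO points of Foxa1 and Sox17 lie below the WT points at EB8.

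The members changed as a split group over the days of retinoic acid treatment. All EB5 and EB8 cells had received retinoic acid, so its effect and that of further days in culture cannot be told apart. In WT, Gata6, Sox17 and Foxa1 rose between EB4 and EB5, with fitted folds of 10.8, 18.1 and 19.1, and Sox7 was also above its EB4 level by EB8. In KO, Gata6 and Foxa1 rose by folds of 11.8 and 23.8 over the same day. Between EB4 and EB5, 3 of the 6 tested members were called in WT, all higher, beside 3.73% of all tested genes in either direction and 2.59% higher. In KO, 2 of 6 were called, both higher, beside 2.51% and 1.82%. Between EB4 and EB8, 4 members were called higher and 1 lower in WT, beside 27.2% of all genes called in either direction, 15% higher and 12.2% lower, and 3 were called higher in KO, beside 18.5% and 9.86%. The median change of the tested members from EB4 to EB8 was 2.83 in WT and 2.26 in KO on the log2 scale, and that of all genes was -0.01 and 0.01. Between ES and EB4 no member was called in WT (16.5% of all genes called) or KO (3.5% called). At an unadjusted p under 0.05 there were 0 members in WT and 1 in KO, beside 5269 and 3443 of all tested genes. By edgeR 0 members were called in each genotype. DESeq2 called 0 in WT and 1 in KO, Gata6, which a fit with the replicate number as a block within each genotype also called (1.85, adjusted p = 0.0315).

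KO and WT differed among the members at EB8. Foxa1 and Sox17 were lower in KO, with fitted folds of 6.19 and 6.39, and no member was called higher. These 2 of 6 stand beside 22.9% of all tested genes called at EB8 in either direction and 12.5% called lower, a background high enough that the count alone says little about endoderm factors. The split of all calls at this stage was 1677 genes higher and 2020 lower in KO, which turned to 2278 higher and 1615 lower when libraries were rescaled to their upper quartile, a scaling that moved the median difference of all genes from -0.03 to 0.11. Foxa1 was called lower under that scaling and Sox17 missed the threshold. No member was called between KO and WT at ES (0% of all genes called by limma and 0 by edgeR, 1846 at an unadjusted p under 0.05, and by DESeq2 100 higher and 369 lower), EB4 (6.12%) or EB5 (4.34%). Unadjusted p-values under 0.05 were seen for 1 member at ES (Foxa1), 0 at EB4 and 1 at EB5 (Sox17). Of the 16124 tested genes, 1846 had such a p at ES, 3668 at EB4 and 3342 at EB5. At these stages edgeR called 0 members, and DESeq2 called 0 at ES and EB4 and 1 at EB5 (Sox17). The median KO to WT difference of the tested members was -0.61 at EB8 against -0.03 over all genes. The summed level of all 7 members was 2617.3 to 3055.8 in the WT EB8 libraries and 1258.7 to 1317.7 in the KO EB8 libraries. The ranges overlapped at EB5 (1437.8 to 2548.8 and 1271.3 to 1855.4). Foxa1 weighed most in the WT EB8 sums, with a group mean of 1301 in WT and 205.2 in KO, and Sox17 had 411 and 63.12. Sox7 (300.3 and 444.5) and Foxa3 (19.99 and 37.56) had the higher mean in KO, so the sum does not describe every member. In bulk RNA, fewer cells expressing a gene and less RNA per expressing cell cannot be told apart, here and in every result below.

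**Figure D2:**
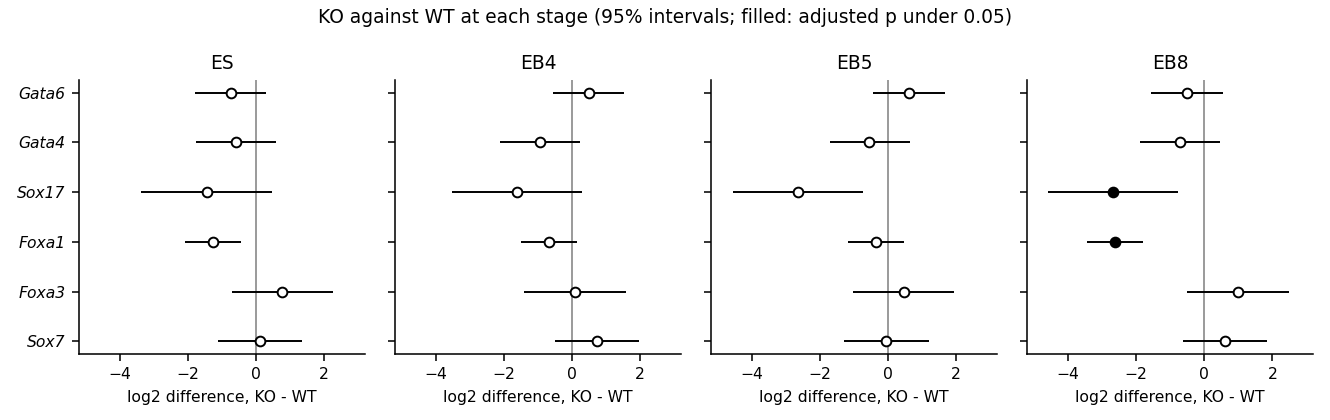
Log2 difference between KO and WT (horizontal axis) for the 6 tested members (vertical axis) at ES, EB4, EB5 and EB8, with 95% intervals from limma and filled points where the adjusted p was under 0.05. The filled points are Foxa1 and Sox17 at EB8, and the intervals of the other members include 0 at that stage.

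Gata4 (ENSMUSG00000021944, chr14:63817759-63890529, minus strand, NCBI37), a zinc finger factor of primitive endoderm and heart, was already present in stem cells. Its WT normalised counts were 100.1 and 81.3 at ES, 112.9 and 172.6 at EB4, 174.1 and 230.6 at EB5, and 363.3 and 254.1 at EB8. The KO counts were 34.0 and 105.8 at ES, 56.1 and 93.2 at EB4, 92.0 and 203.6 at EB5, and 148.8 and 230.1 at EB8. The EB8 libraries were above the EB4 libraries in each genotype, and KO was below WT without overlap at EB4 and EB8 but not at ES or EB5. None of these differences was called without a replicate block. The EB4 to EB8 difference was 1.12 (SE 0.54, adjusted p = 0.148) in WT and 1.34 (adjusted p = 0.105) in KO. A block for replicate number within each genotype called both (adjusted p = 0.0358 in WT and 0.0216 in KO). The KO to WT difference at EB8 was -0.71, with a 95% interval from -1.89 to 0.46 (adjusted p = 0.373), so a fall of more than 2 log2 units lies outside it.

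Gata6 (ENSMUSG00000005836, chr18:11052508-11085633, plus strand), which heads the primitive endoderm programme, was switched on after retinoic acid in both genotypes. WT normalised counts were 30.0 and 21.5 at ES, 25.2 and 61.1 at EB4, 335.9 and 561.1 at EB5, and 500.9 and 448.9 at EB8. Those of the KO libraries were 13.3 and 16.4 at ES, 75.9 and 40.8 at EB4, 853.3 and 519.8 at EB5, and 422.0 and 263.1 at EB8. Every EB5 and EB8 library exceeded every ES and EB4 library of either genotype. KO was below WT at EB8 and ES without overlap, and the genotypes overlapped at EB4 and EB5. Gata6 rose from EB4 to EB5 by 3.43 in WT (SE 0.48, adjusted p = 0.00148) and by 3.56 in KO (adjusted p = 0.00184). It was 3.56 higher at EB8 than at EB4 in WT (fold 11.8, adjusted p = 0.000227) and 2.56 higher in KO (fold 5.89, adjusted p = 0.00415). With the fit limited to the libraries compared, the EB5 changes missed the threshold (adjusted p = 0.0752 in WT and 0.0552 in KO). The KO to WT difference at EB8 was -0.51 (95% interval -1.56 to 0.54, adjusted p = 0.488) and at EB5 0.62 (adjusted p = 0.506). Reads were counted without strand, and 58 bases, or 1.82% of the Gata6 exons, overlap the opposite-strand noncoding gene 1010001N08Rik.

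Sox7 (ENSMUSG00000063060, chr14:64562511-64569569, plus strand), an HMG-box factor of parietal endoderm and endothelium, was expressed at every stage and varied widely between libraries of a group. WT normalised counts were 74.6 and 112.4 at ES, 43.8 and 101.9 at EB4, 172.2 and 253.7 at EB5, and 223.7 and 376.9 at EB8. The KO libraries had 67.2 and 147.9 at ES, 153.0 and 82.9 at EB4, 322.4 and 127.0 at EB5, and 378.8 and 510.3 at EB8. The EB8 libraries were the highest of the KO series, and at EB8 the KO libraries were above the WT libraries, the KO minimum being 378.8 and the WT maximum 376.9. Sox7 rose from EB4 to EB8 by 2.10 in WT (SE 0.57, fold 4.29, adjusted p = 0.0165) and by 1.95 in KO (fold 3.87, adjusted p = 0.0329). These calls were fragile. The WT call was lost without WT EB4 replicate 1 (1.50, adjusted p = 0.154), without WT EB8 replicate 2 (1.73, adjusted p = 0.125) and with the compared groups fitted alone (adjusted p = 0.0512). The KO call was lost without each of KO EB4 replicates 1 and 2 and KO EB8 replicates 1 and 2, with changes from 1.52 to 2.39 and adjusted p-values from 0.0511 to 0.199, and also under quantile scaling (1.72, adjusted p = 0.0563). The KO to WT difference at EB8 was 0.60 (95% interval -0.64 to 1.84, adjusted p = 0.489). From EB4 to EB5 the change was 1.63 in WT (adjusted p = 0.172) and 0.84 in KO (adjusted p = 0.521).

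Sox17 (ENSMUSG00000025902, chr1:4481009-4486494, minus strand), the HMG-box factor of definitive endoderm, rose strongly in WT after retinoic acid and was lower in KO. WT normalised counts were 19.1 and 11.2 at ES, 23.0 and 38.6 at EB4, 325.6 and 957.6 at EB5, and 339.2 and 482.8 at EB8. KO counts were 1.7 and 11.4 at ES, 19.9 and 3.8 at EB4, 165.0 and 46.5 at EB5, and 53.8 and 72.4 at EB8. From EB4 on every KO library was below every WT library of its stage, and at EB5 the libraries of each genotype lay far apart from each other.

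Sox17 was lower in KO at EB8 by a log2 difference of -2.68 (SE 0.88, 95% interval -4.60 to -0.76, adjusted p = 0.046). This call stood close to the threshold and was lost in 8 of 16 alternatives. These included leaving out WT EB8 replicate 1 or 2 or KO EB8 replicate 1 or 2, where the difference was -2.93 to -2.42 and the adjusted p 0.105 to 0.183. At EB5 the difference was as large (-2.66, 95% interval -4.57 to -0.74, 6.3-fold) with an adjusted p of 0.11, which DESeq2 put at 0.0128. At EB4 it was -1.62 (adjusted p = 0.305) and at ES -1.44 (adjusted p = 0.584). In WT, Sox17 rose from EB4 to EB5 by 4.18 (adjusted p = 0.0206) and from EB4 to EB8 by 3.72 (fold 13.2, adjusted p = 0.00818). The EB5 change lost its call without WT EB4 replicate 1 (3.82, adjusted p = 0.153), WT EB4 replicate 2 (4.54, adjusted p = 0.0508) or WT EB5 replicate 2 (3.40, adjusted p = 0.22). The EB8 change lost it without WT EB4 replicate 1 (3.36, adjusted p = 0.0639) or WT EB8 replicate 2 (3.46, adjusted p = 0.0595). In KO the EB4 to EB5 change was 3.15 (adjusted p = 0.0913) and the EB4 to EB8 change 2.66 (adjusted p = 0.0545), the latter passing without KO EB4 replicate 1 (3.72, adjusted p = 0.0375) and with a pseudocount of 5 (2.19, adjusted p = 0.0493). DESeq2 called both KO changes (adjusted p = 0.00592 and 0.0228). The EB4 to EB8 change itself was not called different between the genotypes (-1.06, adjusted p = 0.749).

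Foxa1 (ENSMUSG00000035451, chr12:58641618-58647108, minus strand), the forkhead factor whose promoter window is printed above, showed the firmest genotype difference among the members. WT normalised counts were 26.4 and 31.1 at ES, 24.1 and 18.2 at EB4, 354.8 and 494.2 at EB5, and 1563.6 and 1037.6 at EB8. In KO they were 14.9 and 8.6 at ES, 10.5 and 15.3 at EB4, 348.0 and 304.5 at EB5, and 194.1 and 216.2 at EB8. The KO libraries were below the WT libraries at every stage, narrowly so at EB5 and by several fold at EB8. WT climbed again between EB5 and EB8, while the KO libraries at EB8 lay under those at EB5.

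Foxa1 was lower in KO at EB8 by 6.19-fold (log2 difference -2.63, SE 0.38, 95% interval -3.45 to -1.81, adjusted p = 0.000584), and the call held in 16 of 16 alternatives, with differences from -2.93 to -2.33 and adjusted p-values from 2.22e-15 to 0.0086. At EB5 the difference was -0.36 (95% interval -1.18 to 0.46, adjusted p = 0.625). At EB4 it was -0.68 (adjusted p = 0.314), and at ES -1.26 (adjusted p = 0.207). From EB4 to EB5 Foxa1 rose by 4.26 in WT (adjusted p = 5.82e-05) and by 4.57 in KO (adjusted p = 5.14e-05). From EB4 to EB8 it rose by 5.86 in WT (58-fold, adjusted p = 1.36e-06) and by 3.91 in KO (15-fold, adjusted p = 6.49e-05). Between EB5 and EB8 the WT level rose by 1.60 (fold 3.04, adjusted p = 0.0185), a call lost without WT EB5 replicate 1 (1.36, adjusted p = 0.162) or WT EB8 replicate 1 (1.31, adjusted p = 0.142). The KO difference over the same days was -0.67 (adjusted p = 0.515). Foxa1 was the 1 member called between EB5 and EB8 in WT, beside 10.4% of all genes in either direction and 5.82% higher. In KO limma, edgeR and DESeq2 each called 0 members, and 0.738% of all genes were called by limma. At an unadjusted p under 0.05 there were 0 members, beside 2065 of all tested genes.

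The difference between genotypes in the EB5 to EB8 change of Foxa1 was -2.27 (SE 0.53, 95% interval -3.43 to -1.11), with an adjusted p of 0.0827. That test called 0 of 6 members with limma beside 0.781% of all genes, while edgeR (-2.27) and DESeq2 (-2.29) each called Foxa1. For the EB4 to EB8 change the difference of Foxa1 was -1.95 (adjusted p = 0.0778), with 0 members called beside 2.75% of all genes, 0 called by edgeR and 1, Foxa1, by DESeq2 (-1.94). In each of these 2 tests 1 member, Foxa1, had an unadjusted p under 0.05, as did 2658 of all tested genes for the EB4 to EB8 change. For the EB4 to EB5 change the difference of Foxa1 was 0.32 (adjusted p = 1), and for this change and the ES to EB4 change limma called 0 members and 0% of all genes, edgeR and DESeq2 called 0 members, and 0 members had an unadjusted p under 0.05. Over all genes, 478 had an unadjusted p under 0.05 for the EB4 to EB5 change and 1129 for the ES to EB4 change, edgeR called 0 for each, and DESeq2 called 1 higher and 3 lower for the former and 90 higher and 21 lower for the latter.

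Foxa3 (ENSMUSG00000040891, chr7:19598631-19608887, minus strand), the liver-enriched forkhead paralogue, went the other way. WT normalised counts were 64.6 and 31.1 at ES, 69.0 and 67.6 at EB4, 59.3 and 40.6 at EB5, and 31.5 and 8.5 at EB8. In KO they were 98.0 and 62.2 at ES, 125.0 and 42.1 at EB4, 74.0 and 62.1 at EB5, and 53.8 and 21.3 at EB8. The WT EB8 libraries were below the WT EB4 libraries, and the genotypes overlapped at every stage except EB5, where KO was higher. Foxa3 fell by 1.98 from EB4 to EB8 in WT (SE 0.69, fold 3.95, adjusted p = 0.05 after rounding, just under the threshold), and this call was lost in 11 of 16 alternatives. Those included both other pseudocounts, both other filters, edgeR and DESeq2 (adjusted p = 0.0502 to 0.0885), and leaving out WT EB4 replicate 1 (-1.97, adjusted p = 0.163), WT EB4 replicate 2 (adjusted p = 0.125) and WT EB8 replicate 2 (-1.09, adjusted p = 0.361). The change in KO was -1.08 (adjusted p = 0.307), and the KO to WT difference at EB8 was 0.99 (95% interval -0.50 to 2.49, adjusted p = 0.327).

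Hnf4a (ENSMUSG00000017950, chr2:163332544-163398646, plus strand), the nuclear receptor of visceral endoderm and liver, was close to the limit of detection. WT normalised counts were 0.9 and 30.3 at ES, 7.7 and 10.7 at EB4, 16.0 and 11.0 at EB5, and 33.6 and 8.5 at EB8. In KO they were 0.0 and 7.1 at ES, 0.0 and 2.6 at EB4, 0.9 and 7.8 at EB5, and 7.4 and 4.3 at EB8. The KO libraries were below the WT libraries from EB4 on. At EB4 both KO libraries were at or under a floor of 3 reads, 3.67 normalised counts, against which the WT mean was at least 2.51-fold higher. Without the filter on low means, the KO to WT difference was -2.42 at EB4 (adjusted p = 0.425) and -1.45 at EB8 (adjusted p = 0.555), so no difference in Hnf4a was detectable at this depth.

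Per kilobase of exon, which allows levels to be set between genes, the leading member changed with stage and genotype. In WT stem cells the order was led by Sox7 (28.4 normalised counts per kb), Foxa3 (23.4) and Gata4 (23.2), neighbours whose libraries overlapped. In WT at EB5 Sox17 (203), Gata6 (140) and Foxa1 (133) came on top, again with neighbours overlapping. At EB8 in WT Foxa1 stood alone at 408 per kb, followed by Gata6 (149), Sox17 (130), Sox7 (91) and Gata4 (79), while Foxa3 (9.85) and Hnf4a (4.2) closed the order and overlapped each other. In KO at EB8 the order was led by Sox7 (135) and Gata6 (107), which overlapped, then came Foxa1 (64.3), apart from its neighbours, Gata4 (48.4), Sox17 (20.1), Foxa3 (18.4) and Hnf4a (1.15). In KO at EB5 Gata6 stood apart at 215 per kb, ahead of Foxa1 at 102.

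Across the 16 libraries, the members with the closest profiles were Gata6 and Foxa1 (Pearson r = 0.9 of log2 levels), Sox17 and Foxa1 (0.87), and Gata6 and Sox17 (0.85), while Foxa3 had a negative r with each of the other tested members, from -0.63 to -0.35. These coefficients are descriptions, since the libraries share stages, genotypes and depth. Over the 16123 other tested genes, the profile most like Gata6 was that of Cyp26a1 (0.977), the retinoic acid degrading enzyme, and Meis2 (0.953) was also among the nearest. The nearest to Foxa1 were Hoxa3 (0.976), 5730596B20Rik (0.975) and Hoxb3 (0.97). For Sox17 they were Shd (0.954), Pbx2 (0.953) and Gfra1 (0.949). Above an r of 0.9 there were 139 genes for Foxa1, 85 for Gata6, 77 for Sox17 and 0 for Foxa3, whose nearest was C330006D17Rik (0.879). Gata4 was nearest to Zxdb (0.933) and Sox7 to Dock10 (0.908).

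The closest relatives of the members were the GATA, SOX and FOXA paralogues and GATA cofactors, 9 genes of which 8 were tested. From EB4 to EB8, 5 of them rose in WT, beside 15% of all genes, and 2 in KO, beside 9.86%, with 0 lower in each. Gata5 rose in both genotypes, by 4.43 in WT (adjusted p = 0.00182) and 5.80 in KO (adjusted p = 0.000759), and both calls held with any single compared library left out. Foxa2, a paralogue of Foxa1 in floor plate and node, is also named by the study as a late marker of the endoderm lineage. It rose by 3.01 in WT (adjusted p = 0.00873), a call lost without WT EB8 replicate 1 (2.63), and its KO difference was -0.77 (adjusted p = 0.494).

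Between KO and WT, Foxa2 was the paralogue with the clearest loss. Its normalised counts were 292.6 and 352.5 in the WT libraries at EB5 and 575.5 and 339.9 at EB8, and in the KO libraries 15.2 and 6.8 at EB5 and 40.1 and 38.3 at EB8. Foxa2 was therefore already apart at EB5, the stage at which Foxa1 was not called. The difference of Foxa2 was -4.84 at EB5 (28.7-fold, adjusted p = 0.009) and -3.46 at EB8 (SE 0.72, 11-fold, adjusted p = 0.00513). The EB8 call held without any of its 4 libraries, and the EB5 call was lost without WT EB5 replicate 2 (-4.71, adjusted p = 0.0616) or KO EB5 replicate 2 (-4.32, adjusted p = 0.135). Gata1, the erythroid GATA factor, was higher in KO at EB8 by 3.38 (adjusted p = 0.0048, normalised counts 6.3 and 4.2 in WT, 113.9 and 35.2 in KO), a call lost without KO EB8 replicate 1 (2.55, adjusted p = 0.0549). Over the 8 tested genes of this list, 1 was higher and 1 lower at EB8, with a median of -0.39. This stands beside 22.9% of all genes called, so the count alone says little about these genes.

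**Figure D3:**
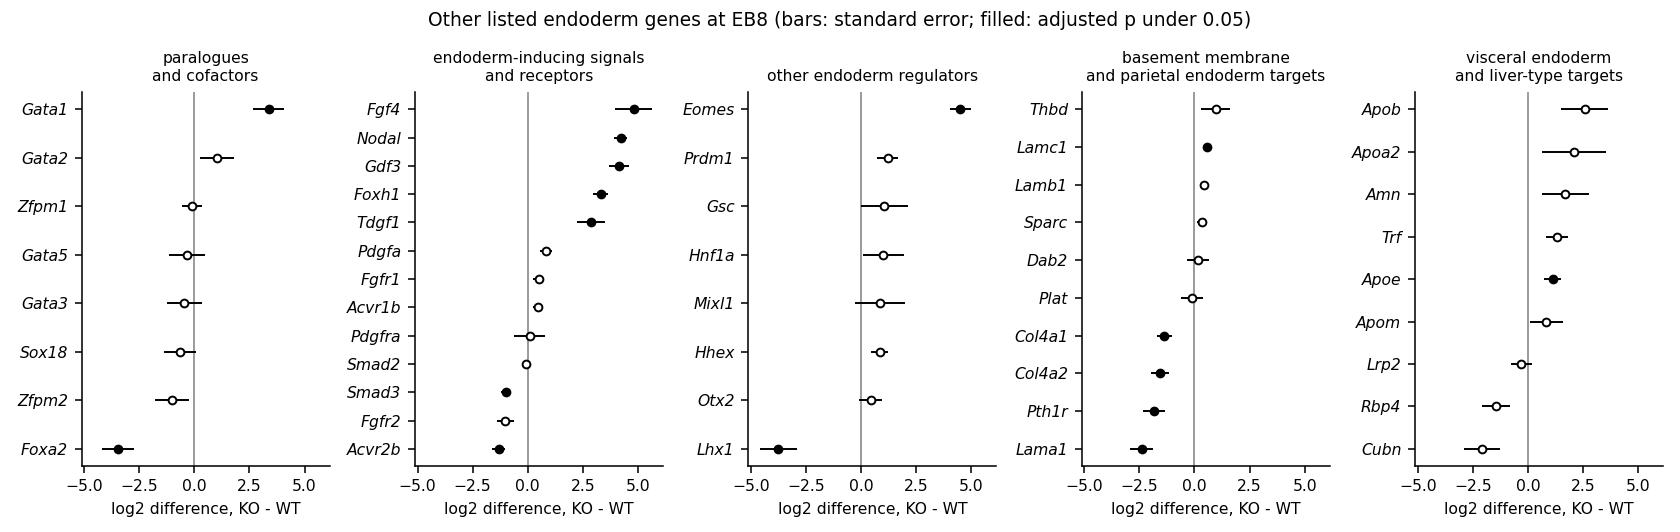
Log2 difference between KO and WT at EB8 (horizontal axis) for tested genes of 5 endoderm lists, with bars for the standard error and filled points for an adjusted p under 0.05. Fgf4, Nodal, Gdf3, Foxh1, Tdgf1 and Eomes lie to the right, higher in KO, and Foxa2, Lhx1, Lama1, Acvr2b and Smad3 lie to the left.

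Endoderm is induced by Nodal, a TGF-beta family ligand that signals with the co-receptor Cripto (Tdgf1) through SMAD proteins and Foxh1. Of 13 inducing signals and receptors, all tested, 5 were higher and 2 lower in KO at EB8, with a median of 0.49. Over all genes, 22.9% were called at that stage, 1677 higher and 2020 lower of 16124. The Nodal ligand had normalised counts of 33.6 and 65.6 in WT, against 819.8 and 963.0 for the KO libraries, 4.21 higher on the log2 scale (18.5-fold, adjusted p = 1.37e-05). Fgf4, a growth factor of the epiblast, was 4.80 higher in KO (27.9-fold, adjusted p = 0.00175). Gdf3, a Nodal-related ligand, was 4.15 higher (adjusted p = 0.000132) and Foxh1 3.31 higher (adjusted p = 9.36e-05). The other called genes of this list were Tdgf1, higher in KO, and the transducer Smad3 and the receptor Acvr2b, both lower. Nodal, Fgf4, Gdf3 and Foxh1 kept their call with any single EB8 library left out. Several of these genes are also expressed in pluripotent cells, and markers of that state moved with them. Pou5f1 was at 193.2 to 260.5 in WT EB8 libraries and 3217.9 to 3690.0 in KO, and Nanog at 117.6 to 313.4 and 7989.0 to 8407.9. Pax6, a neural progenitor factor, was at 5317.2 to 5447.0 in WT and 361.1 to 837.7 in KO. Their part in the differences of the endoderm genes was not tested.

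Among 10 other endoderm regulators, 9 were tested at EB8 and 1 was called in each direction, with a median of 0.86. With 22.9% of all genes called, the count alone says little about these regulators. Eomes, the T-box factor of the primitive streak that acts upstream of definitive endoderm, was higher in KO by 4.51 (22.8-fold, adjusted p = 0.000127), with normalised counts of 23.1 and 12.7 in WT, against 470.6 and 362.2 for KO, and kept its call without any single library. Lhx1, a homeobox factor listed here for its role in anterior mesendoderm, was called higher from EB4 to EB8 in WT, and the cells expressing it were not identified. Its normalised counts at EB8 were 2730.3 and 5042.9 in WT, against 386.2 and 196.0 for KO. Its difference was -3.75 (adjusted p = 0.00827), a call lost without WT EB8 replicate 2 (-3.31, adjusted p = 0.07) or KO EB8 replicate 2 (-3.26, adjusted p = 0.0611).

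Parietal endoderm lays down a thick basement membrane, and some genes of that programme were lower in KO at each embryoid body stage. Of 10 such genes, all tested, 4 were lower in KO and 0 higher at EB4 (median -0.82), beside 6.12% of all genes called, and again 4 lower and 0 higher at EB5 (median -1.26), beside 4.34%. At EB8 4 were lower and 1 higher, with a median of 0.03, beside the 22.9% of all genes called at that stage. At ES 0 of these genes were called, beside 0% of all genes, but their median was already -0.94. Their summed levels at ES did not overlap, at 36499.7 to 37656.4 in WT and 24227.4 to 27780.1 in KO, so the lower level was not particular to embryoid bodies. Col4a1, a collagen IV chain, had normalised counts of 3278.1 and 4648.4 at EB4 and 6203.0 and 10331.2 at EB5 in WT, but 1088.8 and 797.6, then 1104.5 and 940.6, in the KO libraries. Its difference was -2.07 at EB4 (adjusted p = 0.00897), -2.97 at EB5 (adjusted p = 0.00408) and -1.37 at EB8 (adjusted p = 0.0114). The partner chain Col4a2 differed by -2.19 (adjusted p = 0.0126), -2.86 (adjusted p = 0.00849) and -1.56 (adjusted p = 0.015) at the same stages. Many of these calls rested on single libraries. For Col4a1 the EB4 call was lost without KO EB4 replicate 2 (-1.84, adjusted p = 0.11), the EB5 call without KO EB5 replicate 2 (-2.86, adjusted p = 0.069), and the EB8 call without WT EB8 replicate 1 (-1.03, adjusted p = 0.0998) or KO EB8 replicate 1 (-1.17, adjusted p = 0.0854). For Col4a2 the EB4 call was lost without WT EB4 replicate 2 (-1.73) or KO EB4 replicate 2 (-2.18), the EB5 call without WT EB5 replicate 2 (-2.54) or KO EB5 replicate 2 (-2.93), and the EB8 call without WT EB8 replicate 1 (-1.13), KO EB8 replicate 1 (-1.58) or KO EB8 replicate 2 (-1.54). Lama1, a laminin chain, had normalised counts at EB8 of 4793.8 and 4946.6 in WT, against 835.6 and 1017.3 for KO, a difference of -2.40 (5.28-fold, adjusted p = 0.00612) that held without any single library. Col4a1 and Col4a2 lie on chromosome 8, on which the median log2 deviation of a library ranged from -0.16 to 0.41, and its part in these differences was not tested.

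Secreted products and uptake receptors of visceral endoderm and liver gave few calls, and their direction changed with stage. Of 14 genes, 9 were tested, with 2 lower in KO at EB4, 1 lower at EB5 and 1 higher at EB8, and medians of -0.21, -0.67 and 1.12. Beside them, 6.12%, 4.34% and 22.9% of all genes were called at these stages. Cubn, the uptake receptor cubilin, had normalised counts of 153.4 and 587.6 in WT at EB4, against 17.5 and 12.8 for KO, a difference of -4.24 (18.9-fold, adjusted p = 0.0147), and of -3.68 at EB5 (adjusted p = 0.0288). The EB4 call for Cubn was lost without WT EB4 replicate 2 (-3.27, adjusted p = 0.0875) or KO EB4 replicate 2 (-4.02, adjusted p = 0.14), and the EB5 call without any of WT EB5 replicates 1 and 2 and KO EB5 replicates 1 and 2 (-4.30 to -3.07, adjusted p = 0.0567 to 0.248). Apoe, an apolipoprotein made by many cell types, was the gene higher in KO at EB8, by 1.12 (adjusted p = 0.0457), and lost its call without each of WT EB8 replicates 1 and 2 and KO EB8 replicates 1 and 2 (0.96 to 1.27, adjusted p = 0.0892 to 0.201). The classic liver-type secreted products were low, and 2 of them are singled out here after their values were seen. Ttr, encoding transthyretin, was at the 3-read floor in KO at EB8, against which the WT mean was at least 5.95-fold higher, and Afp, encoding alpha-fetoprotein, was at it in KO at EB5, where WT was at least 7.72-fold higher. The WT means were only 18.9 for Ttr and 22.2 for Afp, and these bounds were not tested. The summed level of all 14 genes at EB8 went the other way, at 4414.0 to 5821.8 in WT and 8226.9 to 9407.0 in KO.

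**Figure D4:**
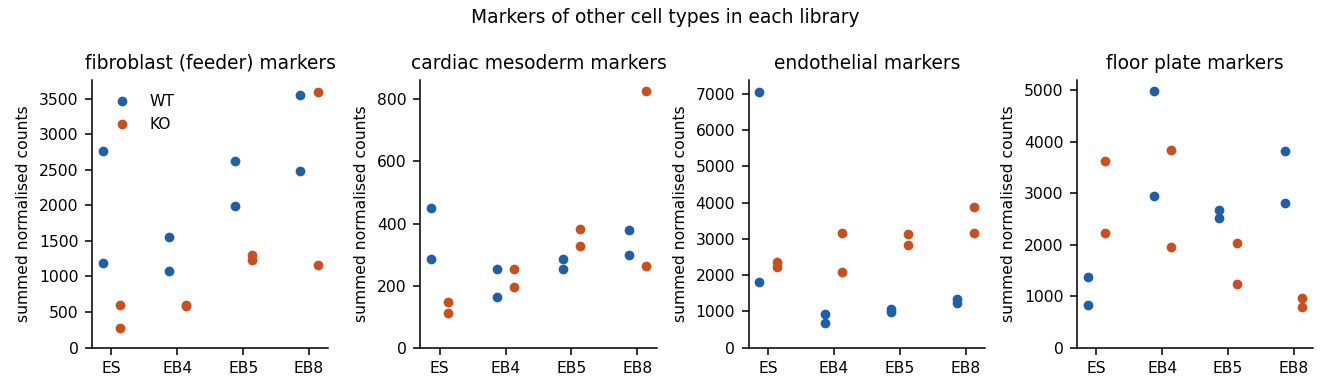
Summed normalised counts of 4 marker lists of other cell types (fibroblast, cardiac mesoderm, endothelium and floor plate) in each library, against stage, WT in blue and KO in orange. At EB8 the floor plate sums are lower and the endothelial sums higher in the KO libraries than in the WT libraries. Both kinds of sum are also high in some ES or EB4 groups, before retinoic acid.

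Foxa1, Sox7, Sox17, Gata4 and Gata6 are also expressed outside endoderm, so markers of such cells are given beside them. Floor plate markers, 8 genes of which 6 were tested, moved in the same direction as Foxa1 at EB8, with 4 lower in KO, 0 higher and a median of -2.91. Over all genes, 22.9% were called in either direction and 12.5% lower. Their summed level was 2813.2 to 3823.5 in WT and 784.0 to 961.2 in KO libraries at EB8, with Ntn1, Spon1 and Foxj1 the most abundant. The sum was already 2943.8 to 4985.1 in WT at EB4 and 2221.3 to 3626.1 in KO at ES, before retinoic acid. Spon1 and Foxj1 were called lower at EB8 than at EB4 in WT, so the sum is not a measure of floor plate cells alone. Shh, the floor plate morphogen, had normalised counts at EB8 of 104.0 and 175.8 in WT, against 4.2 and 4.3 for KO, a difference of -4.70 (adjusted p = 0.000717) that held without any single library. Spon1, encoding an axon guidance protein of the floor plate, differed by -2.98 (adjusted p = 0.0181), lost without WT EB8 replicate 1 (-2.08) or KO EB8 replicate 1 (-2.36). Ntn1, the netrin ligand, differed by -1.67 (adjusted p = 0.0138), lost without WT EB8 replicate 1 (-1.55), WT EB8 replicate 2 (-1.78) or KO EB8 replicate 2 (-1.45). Foxa2 belongs to this list as well as to the paralogues. At EB5, where Foxa1 was not called, the floor plate sums were also lower in KO (2526.6 to 2670.7 in WT and 1228.6 to 2034.6 in KO). However, the median difference of the tested genes was 0.62, with 2 called lower, Foxa2 and Spon1, beside 4.34% of all genes called. The part of floor plate cells in the Foxa1 and Foxa2 differences was not tested.

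Endothelial markers, 8 genes all tested, had 2 higher in KO and 0 lower at EB8 and a median of 0.53, beside 22.9% of all genes called. Their summed level at EB8 was 1234.5 to 1330.5 in WT and 3174.7 to 3886.0 in KO, and at EB4, where the median was -0.99, it was 673.4 to 939.2 and 2078.3 to 3175.0, with Pecam1, Tek and Kdr the most abundant. The sum was already 1819.4 to 7057.6 in WT at ES, and Pecam1 and Tek were called lower from ES to EB4 in WT. At EB4 Pecam1 was called higher in KO and Cdh5 lower, beside 6.12% of all genes. Cdh5 was then at the 3-read floor in KO (2.3 and 3.8), against a WT mean of 42.3, so the sums do not measure endothelial cells alone. At EB8 Tek, the angiopoietin receptor, was 2.46 higher in KO (adjusted p = 0.000227) and kept its call without any single library. Pecam1, an adhesion molecule also present in stem cells, was 3.03 higher (adjusted p = 0.00735), lost without KO EB8 replicate 1 (2.66, adjusted p = 0.0605). For Gata4 and Gata6, cardiac mesoderm markers (10 genes, 7 tested) had 1 higher and 1 lower in KO at EB8, beside 22.9% of all genes called. Their median was 0.37, and their sums overlapped (298.2 to 380.1 in WT and 264.2 to 826.1 in KO). Hand1, a factor of heart and extraembryonic mesoderm, made most of that spread, at 600.3 and 29.8 in the KO EB8 libraries. Fibroblast markers (10 genes, 9 tested) had a median of -0.45 at EB8, and at ES, where feeders were present, their sums were 1192.3 to 2767.4 in WT and 282.3 to 604.6 in KO. From EB4 to EB8, when Sox7 rose in both genotypes and Sox17 in WT, 3 endothelial markers were called higher and 1 lower in WT (Cdh5, Emcn and Erg higher, Tek lower), and 5 higher and 0 lower in KO (Cdh5, Emcn, Erg, Kdr and Tie1), beside 27.2% and 18.5% of all genes called. Over the same days cardiac markers had 2 higher in WT and 1 in KO, and floor plate markers had 3 higher and 2 lower in WT and 1 higher and 2 lower in KO. The same shares of all genes stand beside these counts. The part of these cells in the member differences was not tested.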

How the data were processed

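Poly-A RNA of 16 libraries was sequenced as single-end reads of 54 bases with a kit that does not keep strand. According to the submitters' processing notes, the tools were CASAVA 1.7 and 1.8, TopHat2 2.0.10, HTSeq 0.5.4p3 and DESeq2 1.0.19, on mm9. The values deposited by the authors are a signal, gene counts divided by DESeq2 size factors. Whole reads were recovered from their steps: 100.0% of values were whole multiples within 0.001 reads, at 22442118 to 40711826 reads per library, and a floor of 3 reads was used. The floor covers counting error only, whereas the 95% intervals come from limma and hold the spread between libraries.

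All 8 group means were fitted with limma 3.58.1 in R 4.3.3 on log2(value + 1) with an intensity trend (residual df 8, prior df 4.27), for 16124 of 27807 genes (58.0%) with a mean of at least 10, with Benjamini-Hochberg adjustment at 0.05, two-sided. Fold changes on this scale understate those of low genes. On recovered reads, edgeR 4.0.16 called 1622 genes higher and 1924 lower in KO at EB8, against 1677 and 2020 by limma, and DESeq2 1.42.0 called 2098 and 2528. Other alternatives were the pseudocount, the filter, upper-quartile and quantile scaling, only the compared groups, a replicate block (over all libraries or within each genotype) and leaving out each library. The block within each genotype, that with exchanged KO numbers and the EB5 contrasts with EB4 and EB8 were added after values were seen. Gene positions are from GENCODE M1 on NCBI37, which held 27603 of the identifiers and lacked 204. Tables were handled in Python 3.11.15 with pandas 2.3.3.

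The members are defined by name alone, but these names and the lists were chosen with earlier results of these data known. Named from each other list were at most the 4 called genes of largest change per comparison and the 3 most abundant markers of other cells. A comparison of member proteins was not run, since no protein table was used here. Some genes that the naming rule gave are not reported here.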

Additional observations from a re-analysis of the deposited data

Results flagged for a closer look

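Foxa1 was flagged because its libraries lay in opposite directions in the 2 genotypes between EB5 and EB8. Both WT EB8 libraries were above both WT EB5 libraries, and both KO EB8 libraries were below both KO EB5 libraries. This order of the libraries was the rule for the flag and adds no separate support. WT normalised counts went from 354.8 and 494.2 to 1563.6 and 1037.6, and KO from 348.0 and 304.5 to 194.1 and 216.2. The difference between the changes was -2.27 (SE 0.53, 95% interval -3.43 to -1.11). With limma it had an adjusted p of 0.0827 and did not pass over all genes. The KO change alone was not called (-0.67, 95% interval -1.49 to 0.16, limma adjusted p = 0.515), so a fall in KO is not established.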

How the results depend on the processing

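For single members, 1272 alternative values were computed for 76 results. Of these, 1176 kept their direction and their side of the threshold, 37 lost a call, 16 gained a call and 43 turned direction. Most of the 76 results were not called in the main fit, and an uncalled result that stayed uncalled counts as kept. The 37 losses fall on the called results alone, so the pooled count does not measure how stable the calls were. For the named genes of the other lists, 1369 of 1619 alternative values kept their call, 250 lost it and 0 turned direction. The cause of these changes was not tested.

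Counts of called members moved as follows where the move was large, and other single calls lost or gained are given with each gene. Between KO and WT at EB8 (2 members) 1 was called with a pseudocount of 0.1, without the filter, under upper-quartile scaling, with the replicate block and without any single library. DESeq2 called 1 at EB5, where limma called 0. Between ES and EB4 in KO (0) 1 was called under upper-quartile scaling, with the block of exchanged numbers, with the block within each genotype and by DESeq2. Between EB4 and EB8 in WT (5) 3 were called with only the compared groups and 2 to 5 without single libraries. Between EB4 and EB5 only the compared groups gave 1 in WT (3) and 1 in KO (2). Between EB5 and EB8 in WT (1) 0 to 1 were called without single libraries. The genotype difference in the change from EB4 to EB8 (0) gave 1 with a pseudocount of 5 and by DESeq2, and that from EB5 to EB8 (0) gave 1 with these and by edgeR.

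None of the results that turned direction was called. The KO to WT difference of Sox7 at EB5 was 0.01 under upper-quartile scaling, 0.08 by edgeR and 0.09 by DESeq2. From ES to EB4 in KO, Sox7 was -0.05 and Foxa1 -0.02 under quantile scaling, and Foxa3 0.08 by edgeR and 0.06 by DESeq2. Without single libraries, KO to WT differences ranged at ES from -1.38 to 0.23 (Gata4) and -0.44 to 0.69 (Sox7), at EB4 from -0.13 to 1.11 (Gata6) and -0.68 to 0.86 (Foxa3), and at EB5 from -1.12 to 0.02 (Gata4) and -0.71 to 0.62 (Sox7). From ES to EB4 in WT they ranged from -0.01 to 1.23 (Gata6) and -1.05 to 0.15 (Sox7), and in KO from -0.54 to 1.07 (Gata4), -0.39 to 0.74 (Sox7), -0.31 to 1.92 (Sox17), -0.22 to 0.52 (Foxa1) and -0.88 to 0.67 (Foxa3). From EB4 to EB5 in KO, Foxa3 ranged from -0.87 to 0.67. The genotype difference in the ES to EB4 change ranged from -1.17 to 0.44 (Gata4), -1.29 to 0.94 (Sox17) and -1.47 to 0.08 (Foxa3), and that in the EB4 to EB8 change from -0.13 to 0.59 (Gata4) and -0.75 to 0.45 (Sox7). Where an arm kept 1 library, that library was assumed to vary like the other groups.

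Over all genes, calls at EB4 (443 higher, 543 lower) went to 0 with only the compared groups, and DESeq2 gave 904 and 1173. At EB5 (350 and 350) these settings gave 50 and 22, and 812 and 907. Without single libraries no gene was called at EB4 without KO EB4 replicate 2 or at EB5 without KO EB5 replicate 2, and at EB8 the calls ran from 881 higher and 1026 lower (without WT EB8 replicate 2) to 1057 and 1351 (without KO EB8 replicate 2). The replicate numbers did not pair the genotypes, since deviations of equal numbers correlated between WT and KO at 0.335 for ES but -0.209 to -0.058 for embryoid bodies. Within a genotype they correlated at 0.523 to 0.605 between WT embryoid body stages and 0.233 to 0.422 between KO stages, but at -0.179 to -0.048 between WT ES and the WT embryoid bodies. A block within each genotype, added for this, called 2232 genes higher and 2547 lower at EB8 and, at EB5, 771 and 788, and at EB4 910 and 1075. It made the added calls of Gata4 and Gata6 and lost no call of a member. If a number marks a line, this block takes the spread between lines out of the error, so its genotype calls are less cautious. The main fit treated all libraries as independent. With the replicate block over all libraries 1 member was called at EB8, Foxa1, and 1874 genes were higher and 2207 lower. Low counts limit Hnf4a most.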
